A study of Homo sapiens with 4 samples.

Results

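The 10 genes examined encode amino acid transporters of the SLC1, SLC3, SLC7 and SLC38 families, namely SLC3A2, SLC7A5, SLC7A6, SLC7A7, SLC7A11, SLC7A1, SLC1A4, SLC1A5, SLC38A1 and SLC38A2. They were taken by name from the 18567 genes of an RNA-seq table, and all 10 were present. The RNA came from an established human line, Kasumi-1, which derives from acute myeloid leukemia (AML) and carries the RUNX1-RUNX1T1 fusion. The comparison asked which transcripts differ after knockdown of ANP32B, an acidic nuclear phosphoprotein known as a histone chaperone. The table held 2 NC samples and 2 sh-ANP32B samples, all from the same line. The sample labels describe NC as untreated and give its shRNA as none, whereas the study's methods describe a non-targeting control hairpin (sh-NC) and puromycin selection after lentiviral delivery. Which of the hairpins against ANP32B was used is not given for these samples. Nothing says that samples of a group were separate cultures, so the p-values measure only the spread between these samples, which may be technical.

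Amino acids cross the plasma membrane through transporters that differ in the side chains they accept and in whether they couple to sodium. SLC3A2 (CD98, 4F2hc) is a glycoprotein heavy chain that carries no substrate pore of its own but brings several SLC7 light chains to the cell surface through a disulfide bond. SLC7A5 (LAT1) exchanges intracellular glutamine and other neutral amino acids for leucine and other large neutral amino acids. SLC7A6 and SLC7A7 are the y+L light chains, which exchange cationic for neutral amino acids, and SLC7A11 (xCT) exchanges glutamate for cystine, the source of cysteine for glutathione. SLC7A1 (CAT1) carries arginine and lysine without a heavy chain. SLC1A5 (ASCT2) and SLC1A4 (ASCT1) are sodium-dependent exchangers of small neutral amino acids, with glutamine a substrate of SLC1A5. SLC38A1 (SNAT1) and SLC38A2 (SNAT2) accumulate glutamine and other small neutral amino acids by sodium cotransport, and SLC38A2 is known to be induced when amino acids are scarce. Leucine and arginine that enter by these routes are sensed by the pathway that activates mTORC1 on lysosomes.

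ANP32B itself was measured at 384 and 392 TPM in NC and at 51.8 and 41.2 TPM in sh-ANP32B, which left 12% of the NC mean (log2 fold change -3.04, limma adjusted p = 0.00516). TPM is a level corrected for gene length and scaled to 1 fixed total per sample, so levels of different genes can be compared, and a value is a share of the transcripts in the table. Among markers chosen for Kasumi-1, CD33, PTPRC, SPI1, CD38 and RUNX1T1 were at 4.15 TPM or more in every sample, KIT was at 1.55 to 3.41 TPM, and CD34 and MPO were not analysed here. Of 12 markers of other cell types, 3 were analysed, and PECAM1 was the highest of them at 34.8 to 58.7 TPM. Mitochondrial transcripts took 12.9% and 13.1% of all TPM in NC and 11.4% and 8.43% in sh-ANP32B, and the within-group SD of log2(TPM + 1) was 0.273 in NC and 0.356 in sh-ANP32B. In bulk RNA, fewer cells of a type and less RNA per cell cannot be told apart.

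Upstream sequence is shown for the 3 transporter genes that were lowest relative to NC (SLC7A5, SLC1A5 and SLC7A1) and for the shared heavy chain SLC3A2, because the values below turn on them. The RefSeq promoter windows (GRCh38.p14, 250 bases before to 50 after a start site) held 17 windows for 9 of the 10 genes. Bases are counted from the transcript start, with -1 the base just before it, and each is written 5′ to 3′ on the strand of the gene. Capitals mark matches on either strand to CACGTG, the E-box bound by MYC and MAX and by other bHLH factors, to TGATGNAA, the core of the C/EBP-ATF response element bound by ATF4, or to TGACNNNGC, the core of the antioxidant response element bound by NFE2L2. The SLC7A5 stretch is chr16:87869508-87869667 (minus strand, -160 to -1).
SLC7A5: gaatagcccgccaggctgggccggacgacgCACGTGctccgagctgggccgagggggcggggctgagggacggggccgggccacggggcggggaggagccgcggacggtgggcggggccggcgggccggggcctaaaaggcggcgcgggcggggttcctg
The first SLC1A5 stretch is chr19:46787326-46787355 (minus strand, -62 to -33) and the second, before another start site of the same gene, is chr19:46784895-46784924 (minus strand, -110 to -81). Both lie inside the annotated span of SLC1A5, and 17 and 11 of their 30 bases fall in exons of GENCODE v44.
SLC1A5: ggcgggagtggtCACGTGgacaggacgggg
SLC1A5: aggaggaagtggcTGATGCAAgctgtccag
The SLC7A1 stretch is chr13:29595689-29595808 (minus strand, -120 to -1).
SLC7A1: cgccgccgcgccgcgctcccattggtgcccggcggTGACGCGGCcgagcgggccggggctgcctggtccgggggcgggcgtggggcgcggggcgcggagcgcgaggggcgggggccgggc
The SLC3A2 stretch is chr11:62881579-62881689 (plus strand, -120 to -10). It also lies inside the annotated span of its gene, with 0 bases in exons of GENCODE v44.
SLC3A2: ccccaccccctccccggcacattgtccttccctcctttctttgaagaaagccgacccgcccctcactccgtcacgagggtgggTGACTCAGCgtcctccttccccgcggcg
Within these stretches, SLC7A5 and SLC1A5 each carry an E-box, SLC1A5 also carries a C/EBP-ATF core, and SLC7A1 and SLC3A2 each carry an antioxidant core. This contrast depends on where the stretches were cut. The windows of SLC7A5 and SLC1A5 also hold an antioxidant core (at -2 and -111). Those of SLC7A1 and SLC3A2 also hold a C/EBP-ATF core (at 8 and 38).

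Over whole windows, CACGTG was found for 3 transporter genes (SLC7A5 at -130, SLC1A5 at -50 and SLC7A7 at -225), in 3 of their 17 windows and in 7.26% of all 35116 promoter windows. TGATGNAA was found for 5 (SLC1A5 at -97, SLC1A4 at -7, SLC38A1 at -4, SLC7A1 at 8 and SLC3A2 at 38), in 5 of the 17 windows and in 3.62% of all windows. TGACNNNGC was found for 6 (SLC3A2 at -37, SLC7A1 at -85, SLC7A7 at -88, SLC7A6 at -197 and -29, SLC1A5 at -111 and SLC7A5 at -2), in 6 of the 17 windows and in 13.3% of all windows. A match describes the letters of a window and does not show that a factor binds there. SLC7A7, whose groups overlapped, held both an E-box and an antioxidant core. The 5 genes with TGATGNAA were all lower in sh-ANP32B without overlap of the groups. So were 7 of the 9 genes with a window and 21.4% of all genes tested. Only 1 of the 5, SLC1A5, had its match wholly before the start. A link between the motif and the levels was not tested.

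The 10 genes spanned a wide range of levels. In NC, SLC1A5 had the highest mean (186 TPM), followed by the heavy chain SLC3A2 (174 TPM), SLC38A2 (98.5 TPM), SLC7A5 (92.1 TPM), SLC38A1 (62.7 TPM), SLC1A4 (52.5 TPM), SLC7A1 (39.4 TPM), SLC7A6 (11.8 TPM), SLC7A11 (5.65 TPM) and SLC7A7 (1.03 TPM). The ranges of neighbours in this order did not overlap. SLC1A5 and SLC3A2 lay above 95.6% and 95.2% of the genes tested, SLC7A11 above 33.2% and SLC7A7 above 5.49%. In sh-ANP32B the order changed at its top, where SLC3A2 (154 TPM) stood above SLC1A5 (123 TPM), and SLC38A1 (55.8 TPM) and SLC7A5 (51.0 TPM) were the only neighbours whose ranges overlapped. SLC7A5 stood above SLC38A1 in NC and no longer did so in sh-ANP32B. The summed level of the 10 genes was 722 and 725 TPM in NC against 531 and 569 TPM in sh-ANP32B.

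**Figure D1:**
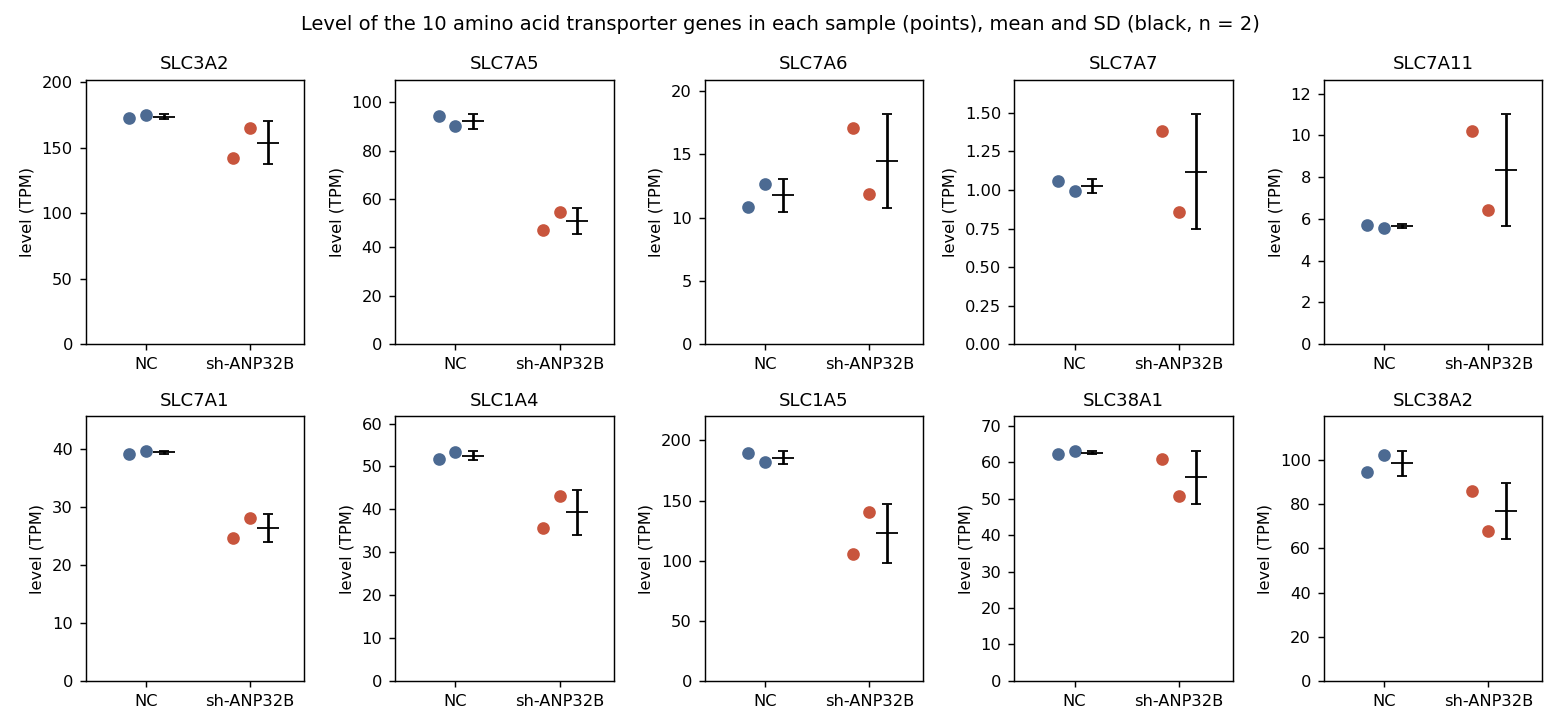
Level of each of the 10 transporter genes in TPM (vertical axes from 0, a separate scale for each gene), with a point for each NC and sh-ANP32B sample and a black bar for the mean and SD (n = 2). For SLC7A5 both sh-ANP32B points, at 47.3 and 54.8 TPM, lie far below the NC points at 94.2 and 90.0 TPM, whereas the sh-ANP32B points of SLC7A6 and SLC7A7 lie on both sides of NC points.

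The clearest difference was in SLC7A5, the leucine transporter. SLC7A5 (ENSG00000103257, chromosome 16, 87830023 to 87869507, minus strand, 13 annotated exons, coordinates here and below from GENCODE v44 on GRCh38) was at 94.2 and 90.0 TPM in NC and at 47.3 and 54.8 TPM in sh-ANP32B. Both sh-ANP32B samples were below both NC samples, and the mean was 55.4% of that in NC (51.0 ± 5.32 against 92.1 ± 2.96 TPM, SD, n = 2 each). On the log2(TPM + 1) scale it fell by 0.84 (SE 0.143, 95% confidence interval -1.18 to -0.50, limma adjusted p = 0.0426, two-sided, Benjamini-Hochberg over 16817 genes). It was the only transporter gene of the 10 with an adjusted p under 0.05, which 3.32% of all genes tested reached (1.18% lower and 2.14% higher in sh-ANP32B). The adjusted p rose above that threshold in fits without NC replicate 1 (limma adjusted p = 0.232) and without NC replicate 2 (limma adjusted p = 0.177), with log2 fold changes of -0.81 and -0.88, and in a fit without the trend of variance on level (limma adjusted p = 0.121). Where a group was left with 1 sample, that sample was assumed to vary like those of the other group. An exact permutation test of 2 against 2 samples cannot give a p below 0.333, so no such test was used for single genes.

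Near-identical sequence limits the SLC7A5 value. SLC7A5P1, a pseudogene copy, was at 8.22, 4.40, 4.40 and 14.4 TPM in NC replicates 1 and 2 and sh-ANP32B replicates 1 and 2, and SLC7A5P2 was at 0.186, 0.415, 0.10 and 3.72 TPM. Both copies were highest in sh-ANP32B replicate 2. How reads that match several copies were shared among them is not given in the sources used here. With the levels of the 3 genes added, the sums were 103, 94.8, 51.8 and 72.9 TPM, and the sh-ANP32B mean was 63.1% of the NC mean, still without overlap of the groups.

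The heavy chain SLC3A2 (ENSG00000168003, chromosome 11, 62856004 to 62888880, plus strand) differed less. It was at 173 and 175 TPM in NC and at 143 and 166 TPM in sh-ANP32B. Both knockdown samples were lower, at 88.6% of the NC mean. The log2 fold change was -0.18 (SE 0.133, 95% confidence interval -0.49 to 0.14, limma adjusted p = 0.468), and the interval included 0. Without sh-ANP32B replicate 2 it was -0.28, and without sh-ANP32B replicate 1 it was -0.07. SLC3A2 passed in a fit with a GC content correction (-0.30, limma adjusted p = 0.0474), as did 2534 of 15427 genes in that fit. Set against the heavy chain within each sample, SLC7A5 was at 0.546 and 0.514 of the SLC3A2 level in NC and at 0.331 in each sh-ANP32B sample, or 62.5% of the NC ratio. The lower ratio restates the lower SLC7A5 level, since SLC3A2 differed little, and is not separate support.

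The y+L light chains did not separate the groups. SLC7A6 (ENSG00000103064, chromosome 16, 68264516 to 68301823, plus strand) was at 10.8 and 12.7 TPM in NC and at 17.1 and 11.8 TPM in sh-ANP32B. The difference of 0.26 on the log2 scale (SE 0.229, limma adjusted p = 0.544) was close to its error and moved to 0.01 without sh-ANP32B replicate 1, 0.51 without sh-ANP32B replicate 2 and 0.15 without NC replicate 1. SLC7A7 (ENSG00000155465, chromosome 14, 22773222 to 22829820, minus strand), a light chain known from monocytes and macrophages, was at 1.06 and 0.996 TPM in NC and at 1.38 and 0.855 TPM in sh-ANP32B, and its difference on the log2 scale was 0.05 (95% confidence interval -0.75 to 0.86, limma adjusted p = 0.948). In both genes sh-ANP32B replicate 1 was the highest sample and replicate 2 lay within or below the NC values. SLC7A7 passed the filter of at least 1 TPM in 2 samples with 1 sample of each group, the other 9 genes with all 4. Its small difference had the opposite sign in 4 of the other fits. SLC7A6 shares 3372 exon bases with SLC7A6OS, a gene on the opposite strand that was at 10.7 and 8.96 TPM in NC and at 8.91 and 10.7 TPM in sh-ANP32B. No source used here says that strand was used in counting, so reads of the 2 genes cannot be told apart.

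SLC7A11, the cystine transporter (ENSG00000151012, chromosome 4, 138164097 to 138242349, minus strand), was the only one of the 10 with both knockdown samples above NC. It was at 5.71 and 5.58 TPM in NC and at 10.2 and 6.44 TPM in sh-ANP32B, a mean of 147% of NC. The log2 fold change of 0.46 (SE 0.263, 95% confidence interval -0.17 to 1.09, limma adjusted p = 0.345) did not pass the test. It was 0.76 without sh-ANP32B replicate 2 and 0.16 without sh-ANP32B replicate 1. Per SLC3A2 it was at 0.0331 and 0.0319 in NC and at 0.0717 and 0.0389 in sh-ANP32B. SLC7A11-AS1, a long noncoding RNA on the opposite strand that shares 865 exon bases with it, was at 0.324 and 0.528 TPM in NC and at 1.79 and 1.78 TPM in sh-ANP32B (log2 fold change 0.97, limma adjusted p = 0.144), and reads in the shared bases cannot be told apart.

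The 4 light chains together were at 0.648 and 0.624 of the SLC3A2 level in NC and at 0.532 and 0.446 in sh-ANP32B (0.636 ± 0.0170 against 0.489 ± 0.0608, SD, n = 2 each), or 77.0% of NC. The groups did not overlap. SLC7A5 made up most of the sum in every sample. These are ratios of transcripts, and protein partners were not measured.

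**Figure D2:**
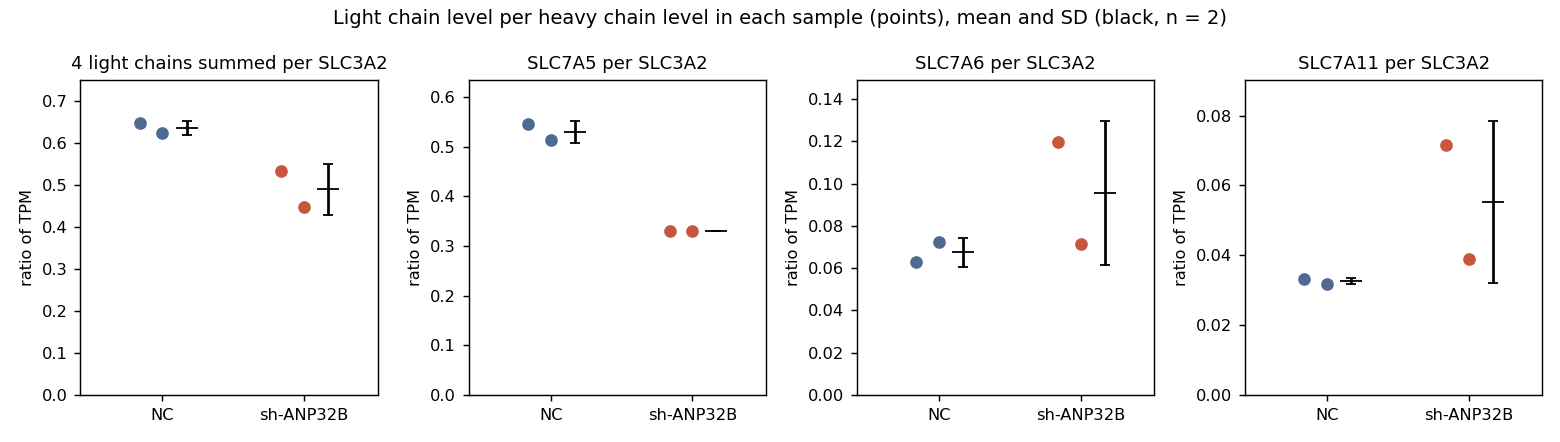
TPM of the summed light chains, SLC7A5, SLC7A6 and SLC7A11 divided by TPM of SLC3A2 in the same sample (vertical axes from 0), with a point for each sample and a black bar for the mean and SD (n = 2). The SLC7A5 ratio is 0.331 in each sh-ANP32B sample against 0.546 and 0.514 in NC, while the SLC7A11 ratio is higher in sh-ANP32B, with replicate 1 at 0.0717 far from replicate 2 at 0.0389.

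SLC7A1, the arginine and lysine transporter (ENSG00000139514, chromosome 13, 29509414 to 29595688, minus strand), was at 39.2 and 39.6 TPM in NC and at 24.6 and 28.0 TPM in sh-ANP32B. The gap between the groups was wider than the spread within either, and the mean was 66.8% of NC (26.3 ± 2.40 against 39.4 ± 0.264 TPM, SD, n = 2 each). Its log2 fold change was -0.57 (SE 0.153, 95% confidence interval -0.93 to -0.20), and it missed the threshold (limma adjusted p = 0.0918). It passed in a fit with a GC content correction (-0.66, limma adjusted p = 0.011), as did 2534 of 15427 genes in that fit. The log2 fold change of SLC7A1 was -0.57 and -0.56 without NC replicates 1 and 2. Without sh-ANP32B replicates 1 and 2 it was -0.48 and -0.66.

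SLC1A5, the glutamine exchanger (ENSG00000105281, chromosome 19, 46774883 to 46788594, minus strand), was at 189.6 and 182 TPM in NC and at 106 and 140.1 TPM in sh-ANP32B. Both knockdown samples were lower but stood apart from each other, with a mean at 66.1% of NC (123 ± 24.4 against 186 ± 5.51 TPM, SD, n = 2 each). Its log2 fold change of -0.61 (SE 0.164, 95% confidence interval -1.0 to -0.21) also missed the threshold (limma adjusted p = 0.0918). It passed with the GC content correction (-0.83, limma adjusted p = 0.00583), as did 2534 of 15427 genes in that fit. The log2 fold change of SLC1A5 was -0.58 and -0.64 without NC replicates 1 and 2. Without sh-ANP32B replicates 1 and 2 it was -0.40 and -0.81.

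SLC1A4, the paralog of SLC1A5 (ENSG00000115902, chromosome 2, 64988477 to 65023865, plus strand), was at 51.8 and 53.3 TPM in NC and at 35.7 and 43.1 TPM in sh-ANP32B. The groups did not overlap and the mean was 74.9% of NC. On the log2 scale the difference was -0.41 (SE 0.156, 95% confidence interval -0.78 to -0.04, limma adjusted p = 0.176, unadjusted p = 0.0341). Without NC replicates 1 and 2 it was -0.43 and -0.39, and without sh-ANP32B replicates 1 and 2 it was -0.28 and -0.55. The ratio of SLC1A4 to SLC1A5 was 0.273 and 0.293 in NC and 0.338 and 0.308 in sh-ANP32B, so SLC1A5 was the lower of the pair relative to NC.

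The sodium-coupled SLC38 genes differed less. SLC38A2 (ENSG00000134294, chromosome 12, 46358188 to 46372773, minus strand) was at 94.6 and 102 TPM in NC and at 85.9 and 68.0 TPM in sh-ANP32B. The log2 difference was -0.36 (SE 0.158, 95% confidence interval -0.74 to 0.02, limma adjusted p = 0.228). SLC38A1 (ENSG00000111371, chromosome 12, 46183063 to 46270017, minus strand) was at 62.4 and 63.0 TPM in NC and at 61.0 and 50.7 TPM in sh-ANP32B, and its log2 difference was -0.17 (95% confidence interval -0.53 to 0.19, limma adjusted p = 0.544). It was -0.30 without sh-ANP32B replicate 1 and -0.04 without sh-ANP32B replicate 2. In both genes the lower of the knockdown samples was replicate 2, the reverse of SLC1A4, SLC1A5, SLC7A1, SLC7A5 and SLC3A2. SLC38A2 passed with the GC content correction (-0.39, limma adjusted p = 0.022), as did 2534 of 15427 genes in that fit. It was at -0.42 and -0.30 without NC replicates 1 and 2, and at -0.53 and -0.19 without sh-ANP32B replicates 1 and 2. The ratio of SLC38A1 to SLC38A2 was 0.659 and 0.615 in NC and 0.710 and 0.745 in sh-ANP32B.

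**Figure D3:**
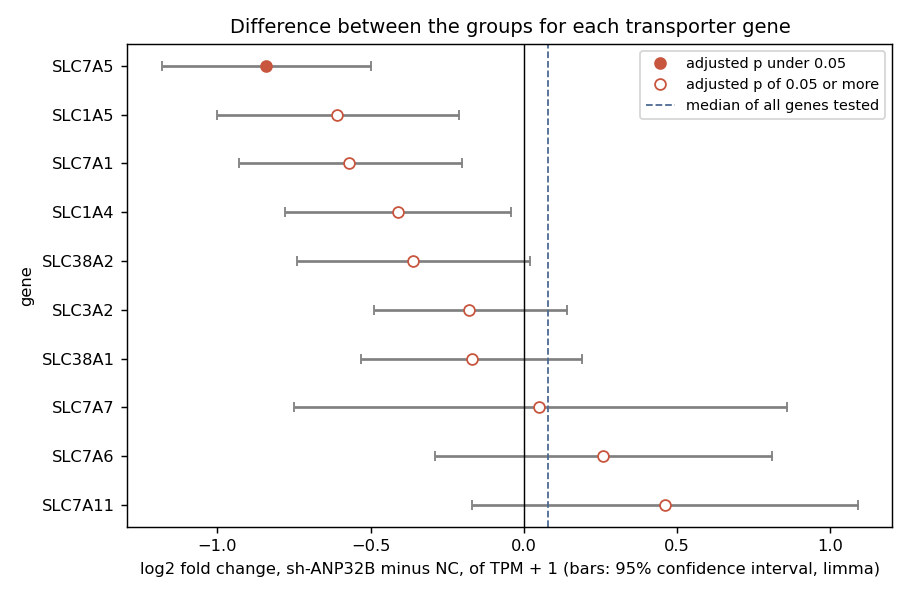
Log2 fold change of each transporter gene, sh-ANP32B minus NC, on the log2(TPM + 1) scale (horizontal axis), with 95% confidence intervals from limma, a filled point for an adjusted p under 0.05 and a dashed line at the median of all genes tested (0.08). SLC7A5 is the only filled point at -0.84, the intervals of SLC7A5, SLC1A5, SLC7A1 and SLC1A4 lie below 0, and the other 6 intervals include 0.

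Counted together, 7 of the 10 genes were lower in sh-ANP32B without overlap of the groups, 1 was higher (SLC7A11) and 2 overlapped (SLC7A6 and SLC7A7). Of all 16817 genes tested, 21.4% were lower without overlap and 33.2% were higher. Under the criterion of the study, which asks for p under 0.05 before adjustment and a log2 difference beyond 0.5 in size, 3 of the 10 (SLC7A5, SLC1A5 and SLC7A1) were lower and 0 were higher, against 6.55% of all genes lower and 12.1% higher. The median log2 fold change of the 10 was -0.27, beside 0.08 over all genes tested, of which 42.1% were negative. The split over all genes moved with the scaling: 199 genes were lower and 360 higher at an adjusted p under 0.05, and 284 lower and 236 higher after median-of-ratios scaling. By the criterion of the study the same split was 1101 lower and 2029 higher as measured, and 1473 lower and 1522 higher after that scaling, where 4 transporter genes passed (SLC1A4 in addition). Which transporter genes passed that criterion depended on the replicate left out, and not only lower genes did. With sh-ANP32B replicate 2 dropped, SLC7A11 and SLC7A6 were higher, at log2 fold changes of 0.76 and 0.51. In the same fit SLC7A5 was at -0.95, SLC1A5 at -0.81, SLC7A1 at -0.66 and SLC1A4 at -0.55. With NC replicate 1 dropped, SLC7A5 was at -0.81, SLC1A5 at -0.58 and SLC7A1 at -0.57. In that fit SLC1A5 and SLC7A1 did not meet the criterion, although their differences were beyond 0.5 in size.

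The shares of the 10 genes in their own sum shifted with these differences. SLC7A5 made up 13% and 12.4% of the sum in NC and 8.89% and 9.62% in sh-ANP32B. SLC3A2 made up 23.9% and 24.2% in NC and 26.8% and 29.1% in sh-ANP32B. SLC7A11 made up 0.791% and 0.771% in NC and 1.92% and 1.13% in sh-ANP32B. A share can rise while the level falls, and the level of SLC3A2 was lower in both knockdown samples.

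The gap between the sh-ANP32B samples moved with the GC content of the genes. Across 15427 genes of these libraries, the log2 difference of sh-ANP32B replicate 2 minus replicate 1 had a Spearman correlation of 0.577 with GC content, and that of NC replicate 1 minus replicate 2 had 0.206. SLC1A5 (61.3% GC) was higher in sh-ANP32B replicate 2 than in replicate 1 by 0.40 and SLC7A5 (61.2% GC) by 0.21 on the log2(TPM + 1) scale, while SLC7A11 (35.4% GC) was at -0.59 and SLC38A2 (37.4% GC) at -0.33. The 5 genes that were higher in replicate 2 had GC contents of 46.5% to 61.3%, and the 5 that were lower had 35.4% to 50.9%. The NC samples differed by -0.06 to 0.21 in these genes. With GC content corrected, 5 of the 10 genes had an adjusted p under 0.05, all lower (SLC7A5, SLC1A5, SLC7A1, SLC38A2 and SLC3A2), together with 2534 of all genes.

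**Figure D4:**
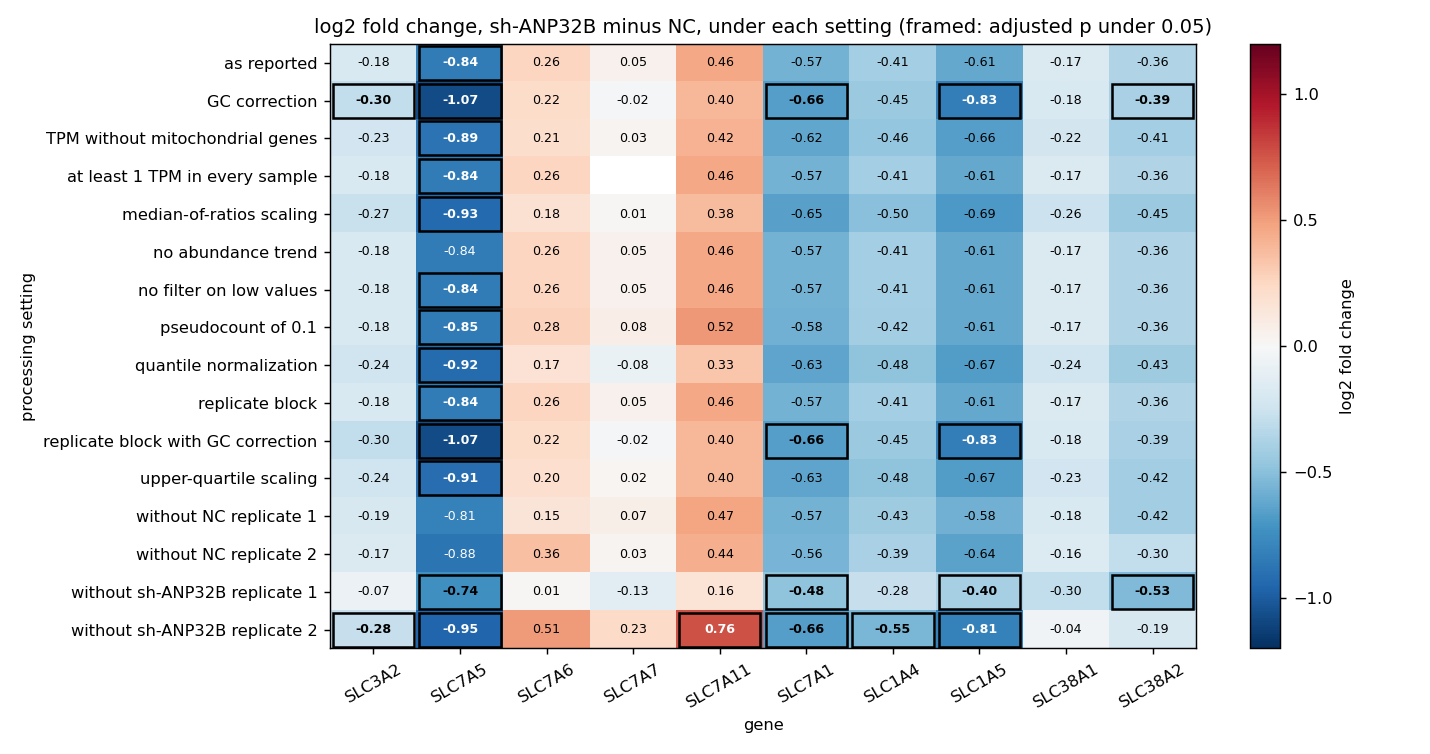
Log2 fold change, sh-ANP32B minus NC, of each transporter gene (columns) under each processing setting (rows), with colour for the value, a frame for an adjusted p under 0.05 and a blank where the gene was filtered out. SLC7A5 is negative under all 16 settings shown and framed in 13, SLC7A7 changes sign between settings, and SLC1A5 and SLC7A1 are framed in 4.

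Other genes that handle amino acids were read by lists drawn up for this purpose. Of 8 other members of the SLC7 and SLC3 families only SLC3A1, a heavy chain known from cystinuria, was analysed, at 0.0819 to 1.13 TPM. Of 17 other plasma membrane transporters 6 were tested, 0 had an adjusted p under 0.05, and by the criterion of the study 1 was lower and 2 were higher (median log2 fold change -0.17, range -0.73 to 1.05). All 10 genes of the lysosomal list were tested, with 0 at an adjusted p under 0.05 and a median of 0.23 (range -0.21 to 0.83). That list also holds SLC29A3 and SLC43A3, known as nucleoside and nucleobase transporters, and SLC43A3 was its lowest gene. Of 11 mitochondrial carriers tested, SFXN3, a member of the sideroflexin family of serine carriers, rose from 65.0 and 66.1 TPM in NC to 132 and 131 TPM in sh-ANP32B (log2 fold change 1.00, limma adjusted p = 0.0299), and the median was -0.05. SLC16A1 and SLC16A3, lactate transporters that use BSG as their partner in place of SLC3A2, had log2 fold changes of -0.67 and 0.91, and BSG was at 0.07, with 0 of the 3 at an adjusted p under 0.05. SLC16A3 was at 277 and 205 TPM in NC and at 311 and 644 TPM in sh-ANP32B, so its knockdown samples stood far apart.

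The list for amino acid sensing by mTORC1 had mostly positive differences. Besides sensing genes it holds the mTORC1 genes MTOR, RPTOR and MLST8, and RHEB, TSC1 and TSC2. It mixes genes that activate and genes that restrain mTORC1, so its counts give no direction for mTORC1 activity. Of 32 tested, 24 were positive and 8 negative with a median of 0.26, beside 42.1% negative and a median of 0.08 over all genes tested. Without overlap of the groups, 19 were higher and 6 lower, beside 33.2% and 21.4% of all genes. CASTOR1, the cytosolic arginine sensor, rose from 11 and 12.5 TPM in NC to 22.8 and 24.6 TPM in sh-ANP32B (log2 fold change 0.96, limma adjusted p = 0.0443) and was the only one to pass. CASTOR1 is known to restrain mTORC1 when arginine is low. By the criterion of the study 5 genes of this list were higher and 2 lower, near the 12.1% and 6.55% of all genes.

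In the amino acid response list, 16 genes were tested and 2 passed, both lower and both enzymes of serine synthesis. Over all genes tested, 1.18% were lower and 2.14% higher at that threshold. PHGDH, the first enzyme of that pathway, fell from 450.1 and 422 TPM in NC to 244 and 286 TPM in sh-ANP32B (log2 fold change -0.72, limma adjusted p = 0.0454). PSAT1, the next enzyme, fell from 160.3 and 162 TPM to 97.0 and 86.5 TPM (log2 fold change -0.81, limma adjusted p = 0.0399). The list as a whole was split, with 10 genes negative, 6 positive and a median of -0.12. Over all genes tested, 42.1% were negative and the median was 0.08.

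Of 20 cytosolic aminoacyl-tRNA synthetases, the enzymes that charge tRNA with the imported amino acids, 17 were negative and 13 were lower without overlap, with 0 higher, beside 21.4% lower and 33.2% higher over all genes. The median was -0.28, with a range of -0.58 to 0.14, 2 passed the criterion of the study and 0 had an adjusted p under 0.05. Of 14 glutamine-using genes, 11 were negative with a median of -0.30, and CTPS1, which makes CTP from UTP with glutamine as nitrogen donor, fell from 60.5 and 60.8 TPM in NC to 30.3 and 27.7 TPM in sh-ANP32B (log2 fold change -1.04, limma adjusted p = 0.0323). By the criterion of the study 5 of these genes were lower and 0 higher, beside 6.55% and 12.1% of all genes. Of 11 genes for cystine and glutathione, 7 were negative with a median of -0.12 and 0 had an adjusted p under 0.05. For these lists too, the values over all genes tested were 42.1% negative and a median of 0.08. In all, 5 genes of the 10 lists had an adjusted p under 0.05, beside 3.32% of all genes tested. Whether the lists differ from that share was not tested. The count of 5 moved widely with the replicate left out. The adjusted p of each of the 5 rose above the threshold without NC replicate 1 and without NC replicate 2. CASTOR1 was also just above it after median-of-ratios scaling (limma adjusted p = 0.0511), upper-quartile scaling (limma adjusted p = 0.051) and quantile normalization (limma adjusted p = 0.0516).

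**Figure D5:**
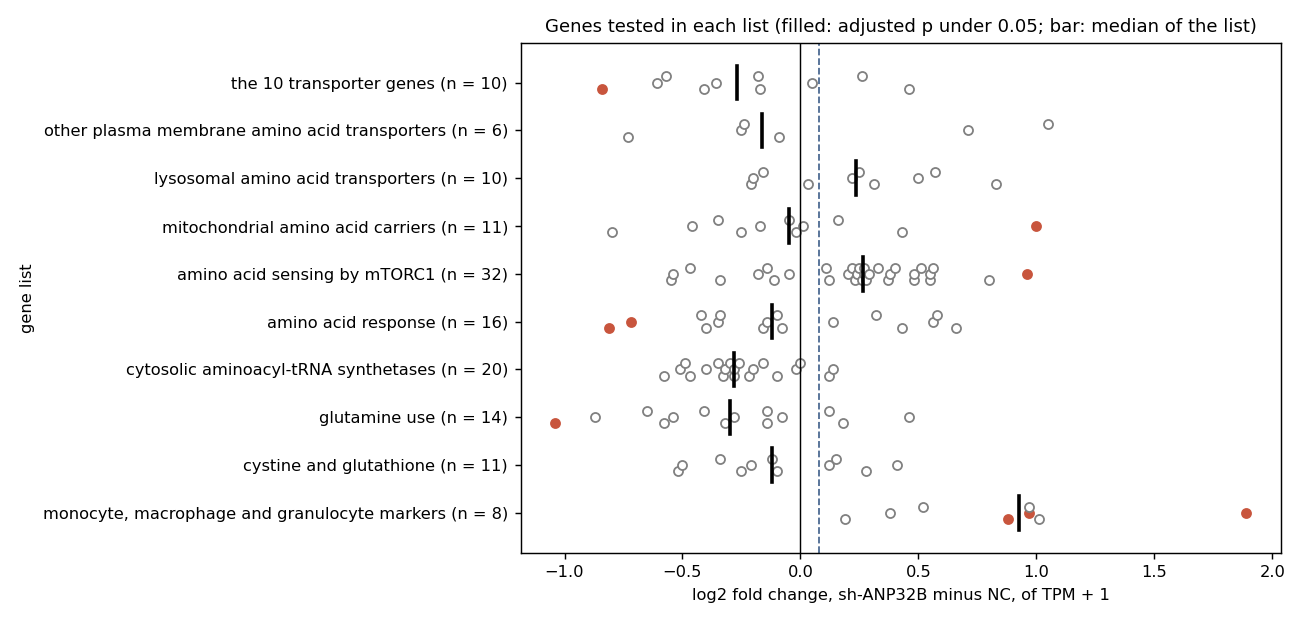
Log2 fold change, sh-ANP32B minus NC, on the log2(TPM + 1) scale (horizontal axis) of each gene tested in the transporter set, in the lists with at least 6 genes tested that handle amino acids and in the list of mature myeloid markers; filled points have an adjusted p under 0.05, black bars are list medians and the dashed line is the median of all genes tested (0.08). The transporter genes (median -0.27), the synthetases (-0.28) and the glutamine-using genes (-0.30) lie mostly below 0. The mTORC1 list (0.26) and the myeloid markers (0.92) lie mostly above.

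Markers of monocytes, macrophages and granulocytes moved with the groups. Of 10 chosen, 8 were tested, all 8 were positive with a median of 0.92, and 7 were higher without overlap, as were 33.2% of all genes. Their summed level was 855 and 902 TPM in NC against 1694 and 1766 TPM in sh-ANP32B. Most of it was LYZ, at 669 and 697 TPM in NC against 1360.0 and 1316 TPM in sh-ANP32B. LYZ (log2 fold change 0.97, limma adjusted p = 0.0281), ITGAX (1.89, limma adjusted p = 0.0154) and CSF3R (0.88, limma adjusted p = 0.0455) passed. Of all genes tested, 2.14% were higher at an adjusted p under 0.05. CSF3R was above that threshold after median-of-ratios scaling (limma adjusted p = 0.0597) and upper-quartile scaling (limma adjusted p = 0.0551). Without NC replicate 1 the adjusted p of LYZ was 0.105 and that of CSF3R 0.117 (limma), and without NC replicate 2 they were 0.0789 and 0.195. CD14 and FCGR3A were not analysed here. The part of these cells' markers in the transporter levels was not tested, and SLC7A7, known from the same cells, was at 1.38 and 0.855 TPM in sh-ANP32B against 1.06 and 0.996 TPM in NC.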

How the data were processed

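Total RNA of Kasumi-1 cells was sequenced on Illumina libraries (TruSeq). Per the submitters' processing notes and the study's methods, the authors aligned reads to hg38 with HISAT2 2.0.5; the program that made the TPM values, the annotation and any filter are not given in the sources used here. The deposited table holds TPM for 18567 genes in 4 samples, summing to 997812 to 998314 per sample, so depth is unknown and no counting interval can be given. All sample columns matched a label by name. Gene symbols and coordinates came from GENCODE v44 (16986 IDs matched, 1581 did not).

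Groups followed the sample labels. The 16817 genes that reached 1 TPM in 2 or more samples were tested as log2(TPM + 1) with limma 3.58.1 in R 4.3.3 (variance trend on level, two-sided, no covariate, Benjamini-Hochberg over all genes tested), in place of the DESeq2 test on counts of the study, since TPM are not counts. A fold change on this scale understates that of low genes. The steps were tested on simulated data with independent noise, without the GC trend or the unequal group spread of these samples. That run cannot speak for calls that move with them. Tables and figures used Python 3.11.15 with pandas 2.3.3, numpy 2.4.6 and matplotlib 3.10.9. Alternatives were a pseudocount of 0.1, no filter or a stricter one, other scalings, GC content correction by loess (span 0.3, 15427 genes with a GC value), no variance trend, a replicate block and leaving out each replicate.

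The 10 genes and all lists were chosen with earlier results of these data known. Named are the 10 genes, ANP32B, genes that overlap or copy them, and, in each list and direction, up to 3 genes with the lowest adjusted p among those under 0.05 without overlap of the groups. Other list genes named, and the marker genes, stand outside that rule and were named after their values were seen. Protein identity between the transporters was not analysed here, and an overlapping gene is not reported here.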

Additional observations from a re-analysis of the deposited data

How the results depend on the processing

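The direction of 9 of the 10 transporter genes held under every alternative run. SLC7A7 changed sign, from 0.05 to -0.02 with GC correction (also with a replicate block), -0.08 with quantile normalization and -0.13 to 0.23 with 1 replicate left out (lowest without sh-ANP32B replicate 1); the cause was not tested. Transporter genes with an adjusted p under 0.05 numbered 1 as reported, 5 with GC correction, 0 without the variance trend (3701 genes of all tested had p under 0.05 before adjustment) and 0 to 6 when 1 replicate was left out. Over all genes the count was 559 as reported, 2534 with GC correction (1373 lower and 1161 higher), 0 without the trend and 273 to 4079 with 1 replicate left out, highest without sh-ANP32B replicate 1 and lowest without NC replicate 2. Genes past the criterion of the study numbered 3130, or 1884 to 3953 with 1 replicate left out, and 1 to 6 of the 10. List genes at an adjusted p under 0.05, counted under alternatives chosen after seeing the data, numbered 5, 35 with GC correction, 0 without the trend and 0 to 51 with 1 replicate left out. The light chain ratio to SLC3A2 in sh-ANP32B relative to NC was 0.77, and 0.702 to 0.837 with 1 replicate left out. Counts without overlap of the groups stayed within 1.5 times. ANP32B had a limma adjusted p of 0.0929 without the trend. In the 250 bases before the start alone, TGATGNAA was found for 1 gene and TGACNNNGC for 5.

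The samples share only replicate numbers. Deviations of same-numbered samples had a Pearson correlation of -0.0925 over 16817 genes, so the numbers were not taken as pairs. A replicate block left 1 transporter gene at an adjusted p under 0.05 and gave 1473 genes and 13 list genes, and the block with GC correction gave 3 (SLC7A5, SLC1A5 and SLC7A1), 1774 and 21.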
